A study of Mus musculus with 12 samples.

Results

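Kainate receptors are one family of ionotropic glutamate receptors, and the group described here holds their 5 subunit genes, Grik1 to Grik5, and the 2 genes of their auxiliary subunits, Neto1 and Neto2. The genes were taken by name, and all 7 were measured, each by 1 of the 25428 probe sets on the array. Striatal tissue from both hemispheres of mouse embryos at embryonic day 18.5 was measured on 1 array per biological replicate, 6 wild-type (WT) and 6 mutant, all of strain background C57BL/6J, with no agent named in the labels. The labels do not say whether a replicate is 1 embryo or a pool. The mutant group is labelled Nestin-Cre (Foxp1-/-) and is called cKO here. Deleted exons, sex and litter are not stated in the labels, nor whether WT embryos carried Cre. Nestin drives Cre in neural progenitors, so cells of other origin, such as vessel and immune cells, can keep the gene.

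A kainate receptor is a tetramer around a cation channel. GluK1 to GluK3, encoded by Grik1 to Grik3, can form channels on their own, whereas the high-affinity subunits GluK4 and GluK5, encoded by Grik4 and Grik5, need one of the former as a partner. Neto1 and Neto2 are single-pass membrane proteins with CUB domains that bind the receptor and change its kinetics, affinity and location. Neto1 also associates with NMDA receptors. In the striatum, kainate receptors are known from projection neurons and interneurons, as well as from the terminals that reach them.

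All values are RMA log2 expression, and all arrays had a median of 5.71. Values near this level lie where RMA compresses differences. The WT means of the 7 genes ran from 6.30 to 10.86, and those of Grik1 and Grik4 were nearest to the median. Levels of different probe sets are not compared. Correlations between arrays ran from 0.992 to 0.998. Foxp1 lay between 10.89 and 11.39 on the WT arrays and between 10.14 and 10.36 on the cKO arrays. Of 20 marker genes of striatal projection neurons 18 were measured, and in WT all 18 had means above the array median. All gene lists were chosen with earlier results of these data known, so their counts and p-values below are a description. The array of cKO replicate 1 stood apart in Ttr, a choroid plexus gene singled out after its values were seen, at 9.96 against at most 5.57 on the other 11 arrays. Changes without it are given for the 7 genes and for each called gene of the lists. For the gene lists, counts or medians without it are given.

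The family was selected on the known log2 changes between the genotypes, above all the low Neto1 values in cKO. The values of its 7 genes in this comparison are therefore a description, without a test. Neto1 and Grik2 were lower in cKO, and Grik1, Grik3, Grik4, Grik5 and Neto2 overlapped between the genotypes. The counts that follow place the genes among all probe sets, and nothing is read from them, since this comparison chose the genes. In a limma fit over all probe sets, 2 of the 7, Neto1 and Grik2, lay in the part that was lower at a Benjamini-Hochberg adjusted p below 0.05. That part holds 0.429% of all probe sets, while 0.728% passed in either direction, and 0.240% did so at an adjusted p below 0.01. The same 2 had all cKO arrays below all WT arrays, as did 0.822% of all probe sets. None of the 7 passed as higher (0.299% of all probe sets did), and none had all cKO arrays above all WT arrays (0.562% of all probe sets). Their median change was -0.088 against -0.00077 over all probe sets.

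**Figure D1:**
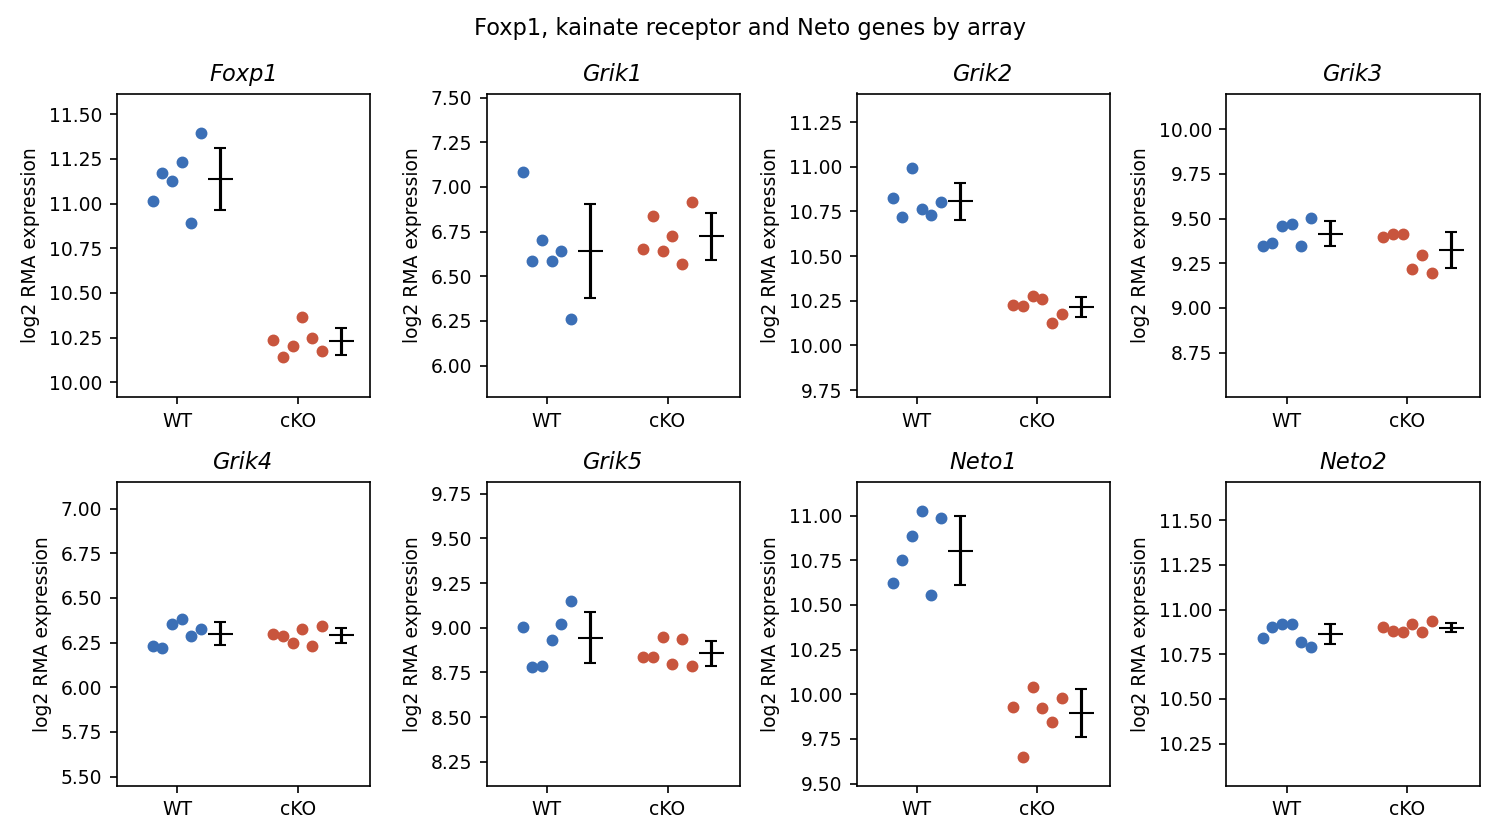
Log2 RMA expression of Foxp1 and the 7 genes on each array, with WT in blue and cKO in red (6 arrays each); every panel spans the same number of log2 units, and the black marks give the mean and SD. The groups are apart for Foxp1, Grik2 and Neto1, and overlap in the other panels.

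Among the pore-forming subunits, Grik2 was the one with separate groups. It encodes GluK2, which can build a receptor alone or with GluK4 or GluK5. On the WT arrays, in the order of replicates 1 to 6, it read 10.83, 10.72, 11.00, 10.76, 10.73 and 10.80. On the cKO arrays, in the same order, it read 10.22, 10.22, 10.28, 10.26, 10.12 and 10.18. The highest cKO array lay 0.45 log2 units below the lowest WT array. The WT mean was 10.81 ± 0.10 (SD, n = 6). The cKO mean was 10.21 ± 0.06 (SD, n = 6), 1.51-fold lower (log2 change -0.59, SE 0.04), and the change ranked 23 among all 25428 probe sets, counted from the most negative. It was -0.60 without cKO replicate 1. Tissue was measured as a whole, so fewer cells of a type and less RNA per cell cannot be told apart.

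RefSeq start sites were matched for 5 of the 7 genes, with 6 windows of 250 bases in all. Those of Grik2, which was lower in cKO, and of Neto2, whose groups overlapped, are printed for comparison. Both windows end just before the start site, on the minus strand of GRCm38.p6: Grik2 at chr10:49788755-49789004 and the distal of 2 Neto2 start sites at chr8:85700925-85701174. The Grik2 window lies within the annotated extent of the gene, which extends further upstream. Capitals mark GC boxes, written GGGCGG and searched on both strands.

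Grik2: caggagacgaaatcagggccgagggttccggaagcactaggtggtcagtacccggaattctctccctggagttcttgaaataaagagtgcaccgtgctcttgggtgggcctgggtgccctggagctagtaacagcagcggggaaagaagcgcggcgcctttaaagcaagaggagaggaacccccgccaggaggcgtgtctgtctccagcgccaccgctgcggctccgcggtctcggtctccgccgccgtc

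Neto2: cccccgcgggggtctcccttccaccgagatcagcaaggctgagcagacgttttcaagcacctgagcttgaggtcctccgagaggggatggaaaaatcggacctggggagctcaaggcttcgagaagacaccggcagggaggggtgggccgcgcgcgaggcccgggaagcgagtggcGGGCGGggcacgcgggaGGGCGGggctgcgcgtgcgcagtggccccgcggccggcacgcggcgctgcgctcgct

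The Grik2 window held none of the 6 motifs searched. One forkhead heptamer searched was TGTTTAC. Another form of it in the search was TGTTTGC. The remaining forkhead form was spelled TATTTAC. Beside these and the GC box, the E-box was searched as CACGTG. The core of the cAMP response element was searched as TGACG. Each was searched on both strands, and matches of different motifs could overlap. The Neto2 window held 2 GC boxes, which begin 74 and 57 bases before the start site. GC boxes were found in 4 of the 6 windows and in 32.7% of the 32851 promoter windows of the same length. G and C made up 42.4% to 82.0% of the bases in the 6 windows, against a median of 52.4% over all promoter windows. The shares are therefore not matched for base content. A forkhead heptamer was found in 1 of the 6 windows, that of the inner Neto2 start site, 16 bases before it. Its 30 bases at chr8:85691010-85691039, minus strand, carry the reverse complement of TGTTTGC in capitals.

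Neto2, inner start: ctgctattgatattGCAAACAggtgcctaa

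On either strand, 4.30% of all promoter windows held TGTTTGC. The share was 3.17% for the heptamer TGTTTAC. It was 2.73% for the heptamer TATTTAC. A match is a string of letters and not a bound site, and none of the 6 windows belongs to Neto1 or Grik1.

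Grik3, which encodes the low-affinity subunit GluK3, differed little between the genotypes. In the same order of replicates, its WT arrays read 9.35, 9.36, 9.46, 9.47, 9.35 and 9.50, and its cKO arrays read 9.40, 9.41, 9.42, 9.22, 9.30 and 9.20. The 3 lowest arrays were all cKO, while the other 3 cKO arrays lay inside the WT range. The change was -0.09 ± 0.05 (SE), and -0.11 without cKO replicate 1. Grik1 encodes GluK1, the subunit of many interneuron kainate receptors. It ran from 6.26 to 7.08 in WT (median 6.61) and lay between 6.57 and 6.92 in cKO (median 6.69). Its spread in WT (SD 0.26, n = 6) was the widest of the 7 genes, and the change of 0.08 ± 0.11 (SE) was smaller than its own error. Without cKO replicate 1 it was 0.09. The Grik1 estimate moved to -0.05 with the interneuron level as a covariate and to -0.0016 without WT replicates 3 and 6, so it has no stable sign.

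The high-affinity subunit genes showed small differences. Grik5, which encodes GluK5, ran from 8.78 to 9.15 in WT (median 8.97) and lay between 8.78 and 8.95 in cKO (median 8.84), with a change of -0.09 ± 0.06 (SE), and -0.08 without cKO replicate 1. Grik4, which encodes GluK4, ran from 6.22 to 6.38 in WT (median 6.31) and lay between 6.23 and 6.35 in cKO (median 6.29). Its change was -0.01 ± 0.03 (SE), and its sign was not stable either, with estimates from -0.03 to 0.03 over 23 alternative fits. Without cKO replicate 1 it was again -0.01. Grik4 lay close to the array median, where little change can be seen.

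Of the auxiliary subunit genes, Neto1 had separate groups and Neto2 did not. Neto1 read 10.62, 10.75, 10.88, 11.03, 10.55 and 10.99 in WT replicates 1 to 6. It read 9.93, 9.65, 10.04, 9.92, 9.85 and 9.98 in cKO replicates 1 to 6, so the highest cKO array lay 0.51 below the lowest WT array. The WT mean was 10.80 ± 0.19 (SD, n = 6). The cKO mean was 9.89 ± 0.14 (SD, n = 6), 1.88-fold lower (log2 change -0.91, SE 0.09), and the change ranked 9 from the most negative. It was -0.92 without cKO replicate 1. Neto2 read 10.84, 10.90, 10.92, 10.92, 10.82 and 10.79 in WT and 10.90, 10.88, 10.88, 10.92, 10.88 and 10.94 in cKO. Only cKO replicate 6, at 10.94, lay above the highest WT array, and the change was 0.03 ± 0.02 (SE), and again 0.03 without cKO replicate 1.

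Marker lists of other cells differed between the genotypes in part. Over all probe sets, 48.8% had a positive change, and at an unadjusted p under 0.05 in limma 5.06% were higher and 5.67% lower. Of 12 measured cortical neuron genes, all 12 had a positive change and 0 passed over all genes in limma. An unadjusted p under 0.05 was reached by 3 of them (4 without cKO replicate 1). The 2 with the smallest p were the transcription factor genes Nr4a2 (0.64 ± 0.20, limma adjusted p = 0.225) and Neurod6 (0.51 ± 0.21, limma adjusted p = 0.408). The list's mean per array spanned 6.32 to 6.70 on WT arrays and 6.39 to 6.92 on cKO arrays. With that mean as a covariate, the change was -0.85 for Neto1 and -0.53 for Grik2. Of 13 genes listed for interneurons, 1 rose, the transcription factor gene Maf (0.57 ± 0.09, limma adjusted p = 0.0150), and 1 fell, the chemokine receptor gene Cxcr4 (-0.42 ± 0.08, limma adjusted p = 0.0341). Of the 13, 9 had a positive change, and an unadjusted p under 0.05 was reached by 3 with a higher level and 1 with a lower one (4 and 1 without cKO replicate 1). Beside Maf, the higher ones were the neuregulin receptor gene Erbb4 (0.31 ± 0.07, limma adjusted p = 0.0603) and the GABA synthesis gene Gad1 (0.16 ± 0.04, limma adjusted p = 0.128), named after their values were seen. The list's other transcription factor genes, also named then, changed little. They were Lhx6 (-0.02 ± 0.07), Nkx2-1 (0.01 ± 0.07), Sox6 (0.04 ± 0.05) and Lhx8 (-0.02 ± 0.11). The list's mean spanned 7.82 to 7.93 on WT arrays and 7.90 to 7.99 on cKO arrays, and with it as a covariate the changes were -0.79 for Neto1 and -0.64 for Grik2. The call of Maf held in 20 of 23 alternatives, with a change of 0.55 (limma adjusted p = 0.0439) without cKO replicate 1. That of Cxcr4 held in 12 of 23, with a change of -0.43 (limma adjusted p = 0.0604) without cKO replicate 1. The alternatives include the interneuron covariate, the mean of a list that holds both genes, so that fit cannot decide on their calls. Cxcr4 missed the threshold without WT replicate 2 or 3 or without any 1 of cKO replicates 1, 2, 3, 4 and 6, with a limma adjusted p from 0.0604 to 0.0839.

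Of 18 projection neuron genes, 2 fell, the Ikaros factor gene Ikzf1 (-0.59 ± 0.07, limma adjusted p = 0.00353) and the phosphodiesterase gene Pde10a (-0.59 ± 0.09, limma adjusted p = 0.00869), and 0 rose. The calls held in 21 and 20 of 23 alternatives, and both were lost with the interneuron covariate (limma adjusted p = 0.102 and 0.205). Without cKO replicate 1 the changes were -0.63 for Ikzf1 and -0.60 for Pde10a (limma adjusted p = 0.00469 and 0.0201). Of the 18 genes, 11 had a negative change, and at an unadjusted p under 0.05 there were 9 lower and 3 higher (10 and 2 without cKO replicate 1). The 3 higher were Penk (0.38 ± 0.08, limma adjusted p = 0.0501), Six3 (0.37 ± 0.08, limma adjusted p = 0.0601) and Foxp2 (0.11 ± 0.04, limma adjusted p = 0.372). Beside Ikzf1 and Pde10a, the lower ones were Tac1, Rarb, Ppp1r1b, Gnal, Ebf1, Isl1 and Pdyn, with changes from -0.55 to -0.08. These genes were named after their values were seen, and the list's mean averages over both directions. The list's mean spanned 8.73 to 8.99 on WT arrays and 8.62 to 8.78 on cKO arrays, and its median change was -0.14. Of 11 dividing cell genes, all 11 had a positive change, with a median of 0.17, and 5 reached an unadjusted p under 0.05. These counts were equal without cKO replicate 1. Over all genes 1 passed, the mitotic kinase gene Aurkb (0.22 ± 0.04, limma adjusted p = 0.0303, held in 13 of 23 alternatives). It missed the threshold without WT replicate 4 or 5 or cKO replicate 2, 3 or 5 (limma adjusted p from 0.0574 to 0.0841), and without cKO replicate 1 its change was 0.20 (limma adjusted p = 0.0486). The other 4 were Ccna2, Kif11, Bub1 and Cenpe, named after their values were seen, with changes of 0.36 ± 0.10, 0.30 ± 0.09, 0.26 ± 0.09 and 0.19 ± 0.07. The list's mean spanned 7.04 to 7.32 on WT arrays and 7.16 to 7.43 on cKO arrays. Glial genes (12 measured) and genes of immune, vascular, choroid plexus, blood and meningeal cells (13 measured) gave 0 calls in limma. At an unadjusted p under 0.05, 1 glial gene was lower and 1 of the other cells was higher, also without cKO replicate 1. The glial list's mean spanned 7.63 to 7.87 on WT arrays and 7.77 to 7.80 on cKO arrays, and that of the other cells from 6.28 to 6.35 and from 6.31 to 6.68, where the highest value is that of cKO replicate 1. The list of the other cells includes Ttr. Values of the 2 genes with the smallest p were 0.15 ± 0.08 for Aldh1l1 and -0.07 ± 0.02 for Cspg4 among glial genes, and 0.13 ± 0.05 for Pdgfrb and -0.04 ± 0.02 for Folr1 among the others. The part of these cells in the values of Neto1 and Grik2 was not tested beyond the covariates given.

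Genes whose products bind, traffic or cluster kainate receptors were listed by name, and 19 of 20 were measured. In limma, 1 of the 19 fell and 0 rose, also without cKO replicate 1. At an unadjusted p under 0.05, 1 was lower and 1 higher, against 5.67% and 5.06% of all probe sets. The higher one was the cadherin gene Cdh2 (0.10 ± 0.03, limma adjusted p = 0.194), named after its values were seen. The list's median change was -0.00065, against -0.00077 over all probe sets. The gene that fell was Dlg2, which encodes PSD-93, a scaffold of the postsynaptic density that binds the tails of glutamate receptors. By replicate, Dlg2 read 9.73, 9.60, 9.74, 9.62, 9.54 and 9.68 on WT arrays and 9.31, 9.33, 9.35, 9.43, 9.32 and 9.34 on cKO arrays. All cKO arrays lay below all WT arrays, and the change was -0.30 ± 0.04 (SE, limma adjusted p = 0.00241). With the interneuron level as a covariate the change was again -0.30, with a limma adjusted p of 0.0570, and without cKO replicate 1 it was -0.29 (limma adjusted p = 0.00896). The related scaffold genes Dlg1, Dlg3 and Dlg4, chosen after their values were seen, had changes of -0.01 ± 0.04, 0.04 ± 0.04 and 0.01 ± 0.04.

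The other ionotropic glutamate receptor genes measured gave 0 calls, and metabotropic receptors were not analysed here. Of 13 listed AMPA, NMDA and delta receptor genes 11 were measured. In WT, 8 of the 11 had means above the array median, and Grin2a, Grin2c and Grin3b lay below it, where little change can be seen. Of the 11, 0 passed in limma and 1 was higher at an unadjusted p under 0.05. This was Gria1, which encodes an AMPA receptor subunit, at 0.27 ± 0.06 (limma adjusted p = 0.0589). Gria1 had all cKO arrays above all WT arrays, as did 0.562% of all probe sets. It passed in 6 of 23 alternatives, among them without WT replicate 1 (limma adjusted p = 0.0293) and without WT replicate 6 (0.0348). Grin2c, with the next smallest p, was at -0.02 ± 0.01, and the list's median was -0.012 (0.018 without cKO replicate 1, where Gria1 was at 0.27 with a limma adjusted p of 0.115). Of 16 auxiliary or clustering proteins of AMPA receptors 0 passed, with a median of 0.044. Its 2 genes with the smallest p were Cacng3 at 0.26 ± 0.09 (limma adjusted p = 0.303) and Cacng4 at -0.09 ± 0.04 (limma adjusted p = 0.401), and at an unadjusted p under 0.05 there was 1 higher and 1 lower (2 and 0 without cKO replicate 1). Of 8 glutamate transporter genes 0 passed in limma and 0 had an unadjusted p under 0.05 (1 was higher without cKO replicate 1). Values were 0.15 ± 0.07 for the glial transporter gene Slc1a2 and -0.03 ± 0.02 for Slc17a8.

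**Figure D2:**
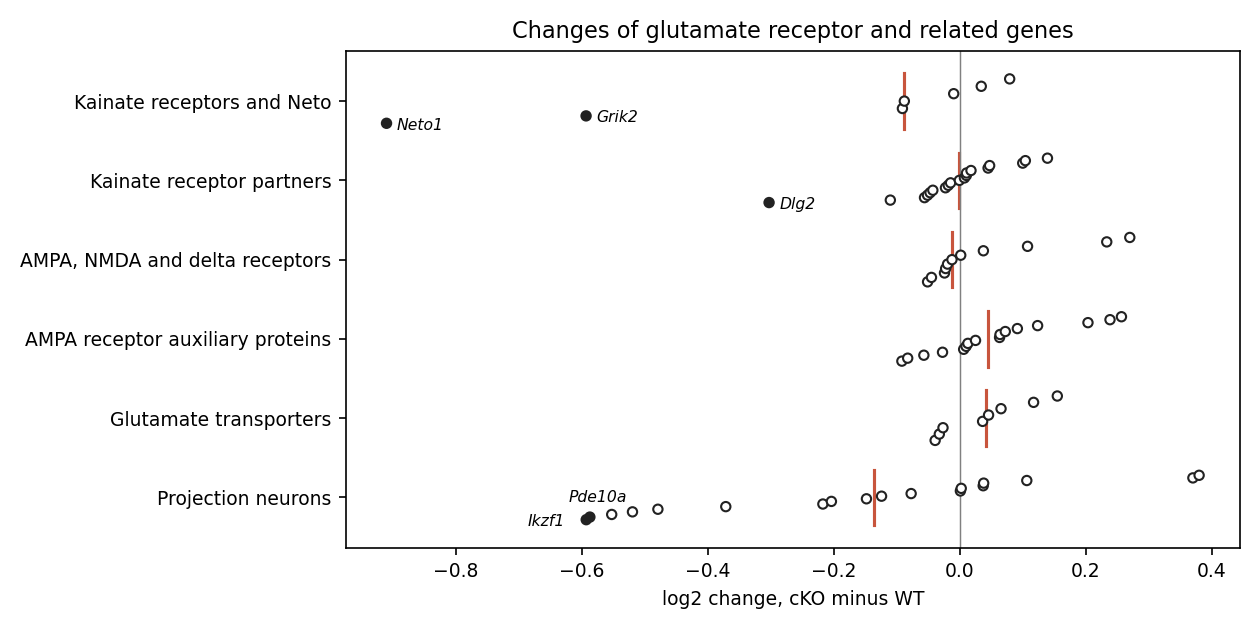
Log2 change (cKO minus WT) of each measured gene in 6 gene lists, in order of size within a list; filled points passed a limma adjusted p of 0.05 over all probe sets, and red lines mark list medians. Neto1 has the most negative change among the genes drawn (-0.91), followed by Grik2, Ikzf1 and Pde10a (each -0.59).

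A lower level of both in cKO does not show whether Neto1 and Grik2 vary together from replicate to replicate, so their covariation was examined within each genotype. The pair was singled out with the data known, so its values are a description. Pearson's r was 0.256 in WT and 0.250 in cKO, with a Spearman's rho of 0.200 and 0.486 (n = 6 arrays each). Without the 2 arrays farthest from the Neto1 median, WT replicates 4 and 5 and cKO replicates 2 and 3, r was 0.257 and 0.460. Leaving out 1 array at a time, r ran from 0.024 (without WT replicate 5) to 0.457 (without WT replicate 4) in WT. In cKO it ran from -0.054 (without replicate 3) to 0.683 (without replicate 2), with 0.241 without replicate 1. With the genotype means subtracted, r over the 12 arrays was 0.252, and Grik2 ranked 2410 among the 11102 named probe sets above the array median in likeness to Neto1.

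**Figure D3:**
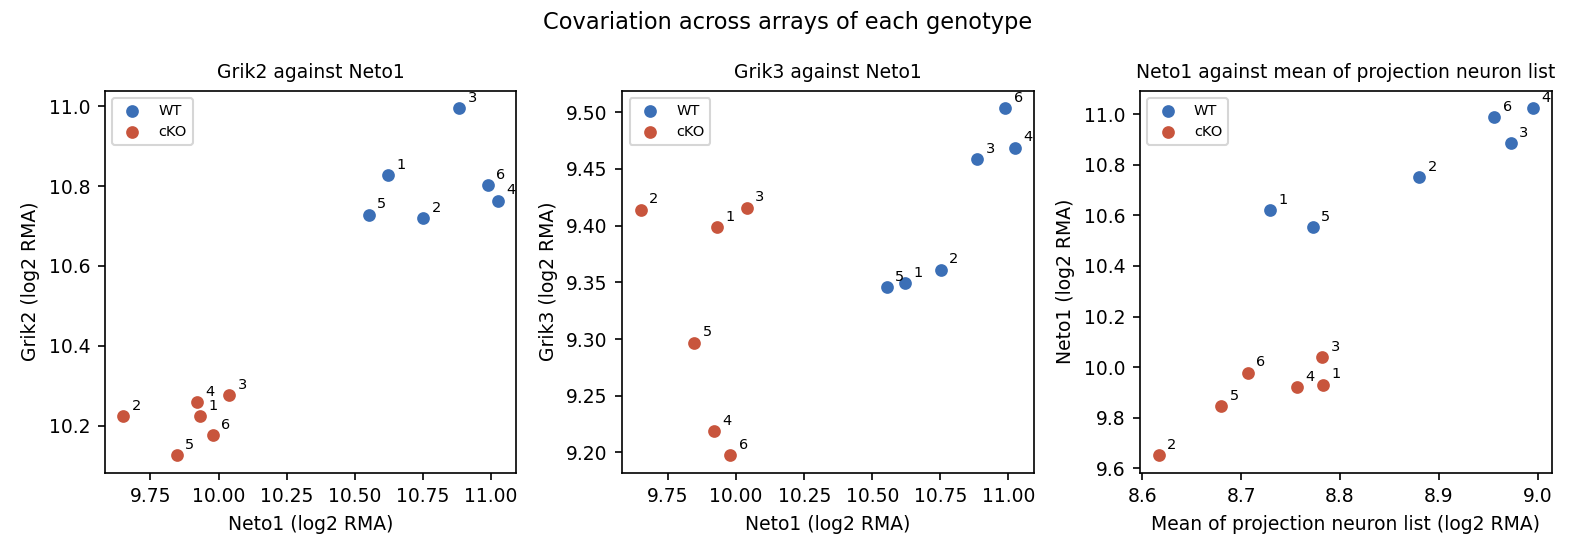
Left and middle, Grik2 and Grik3 against Neto1; right, Neto1 against the mean of the projection neuron list, all in log2 RMA units, with 6 WT (blue) and 6 cKO (red) arrays numbered by replicate. Grik2 and Neto1 form 2 separate clouds with little slope inside each (r of 0.256 and 0.250), while Grik3 and Neto1 have an r of 0.938 in WT and -0.265 in cKO.

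The other 20 pairs among the 7 genes gave 40 relations within the genotypes, and none passed after Benjamini-Hochberg adjustment over the 40 in two-sided exact permutation tests. The unadjusted p was under 0.05 in 2 WT pairs and 3 cKO pairs. In WT, Grik3 with Neto1 had r = 0.938 and rho = 0.943 (exact permutation p = 0.0167 for each, adjusted p = 0.222 for each, n = 6). Without WT replicates 4 and 5, r was 0.961. In cKO the same pair had r = -0.265 and rho = 0.029 (exact permutation p = 0.686 and 1.0), and the difference between the genotypes was not tested.

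Grik5 with Neto2 had a negative r at an unadjusted p under 0.05 in both genotypes. In WT, r was -0.884 and rho -0.812 (exact permutation p = 0.0222 and 0.0722, adjusted p = 0.222 and 0.361). In cKO, r was -0.839 and rho -0.943 (exact permutation p = 0.0375 and 0.0167, adjusted p = 0.300 and 0.222). Without the 2 arrays farthest from the Grik5 median, r was -0.822 in WT and -0.900 in cKO. Within cKO, the other pairs at an unadjusted p under 0.05 were Grik4 with Grik5 (r = -0.970, rho = -0.886, exact permutation p = 0.00556 and 0.0333, adjusted p = 0.194 and 0.267) and Grik4 with Neto2 (r = 0.914, rho = 0.943, exact permutation p = 0.00972 and 0.0167, adjusted p = 0.194 and 0.222). These cKO arrays spanned 6.23 to 6.35 for Grik4 and 10.88 to 10.94 for Neto2. In WT, r was 0.091 for Grik4 with Grik5 and 0.245 for Grik4 with Neto2, and the differences between the genotypes were not tested.

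**Figure D4:**
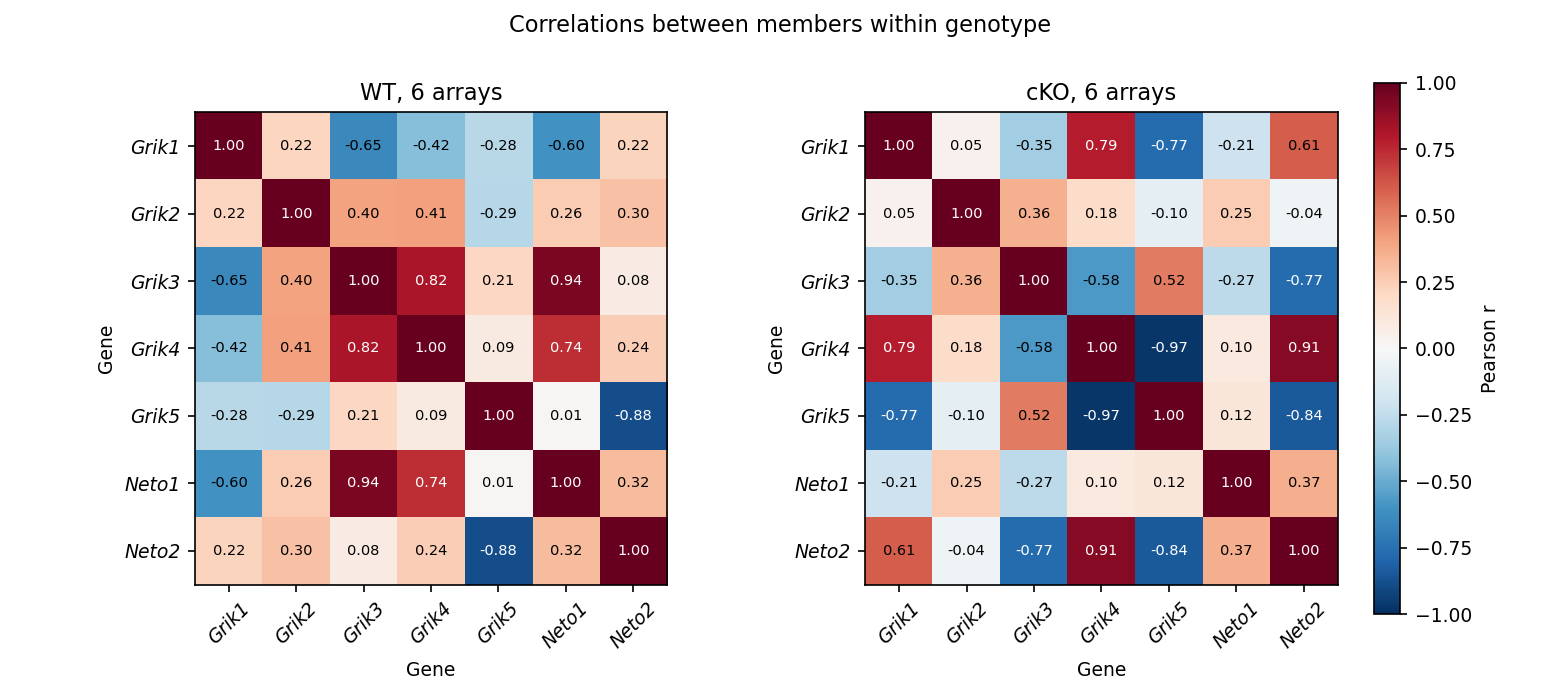
Pearson's r between each pair of the 7 genes over the 6 WT arrays (left) and the 6 cKO arrays (right), from -1 in blue to 1 in red. Neto1 with Grik3 is highest in WT and Grik4 with Neto2 highest in cKO, and Grik5 with Neto2 is negative in both.

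The 7 genes were also set against Foxp1 and the means of 4 marker lists within each genotype, and none of the 70 relations passed after adjustment in two-sided exact permutation tests. The unadjusted p was under 0.05 in 5 relations in WT and 4 in cKO. Within WT, Neto1 was positively related to Foxp1 at an unadjusted p under 0.05 (r = 0.890, rho = 0.886, exact permutation p = 0.0167 and 0.0333, adjusted p = 0.272 and 0.333). Without WT replicates 5 and 6, r was 0.864. Within cKO, where Foxp1 covers a narrow range (10.14 to 10.36), r was 0.323 and rho -0.029. Without cKO replicates 2 and 4, r was -0.755, so the cKO relation has no stable sign. For Grik2 with Foxp1, r was 0.079 in WT and 0.178 in cKO.

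Neto1 with the projection neuron list in WT had r = 0.940 and rho = 0.886 (exact permutation p = 0.0111 and 0.0333, adjusted p = 0.272 and 0.333), and r = 0.881 without WT replicates 1 and 5. In cKO, r was 0.859 and rho 0.714 (exact permutation p = 0.0278 and 0.136, adjusted p = 0.304 and 0.557). It was 0.058 without cKO replicates 2 and 5, so the cKO relation rests on those arrays. Grik2 with the cortical neuron list was negative in WT (r = -0.859, rho = -0.886, exact permutation p = 0.0167 and 0.0333, adjusted p = 0.272 and 0.333), with r = -0.834 without WT replicates 3 and 5 and -0.599 over all 6 arrays in cKO. Grik3 was positive with Foxp1 in WT (r = 0.833, rho = 0.943, exact permutation p = 0.0306 and 0.0167, adjusted p = 0.304 and 0.333) and the projection neuron list in WT (r = 0.879, rho = 0.771, exact permutation p = 0.0417 and 0.103, adjusted p = 0.324 and 0.514). Without the 2 arrays farthest from the median on the other axis, r for these 2 Grik3 relations was 0.638 and 0.830. In cKO, Grik3 had r = -0.465 and rho = -0.314 with Foxp1. With the projection neuron list in cKO, it had r = 0.00048 and rho = 0.143. The differences between the genotypes were not tested.

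In cKO, the dividing cell list was related to 3 of the genes at an unadjusted p under 0.05. For Neto2, r was -0.957 and rho -0.829 (exact permutation p = 0.00556 and 0.0583, adjusted p = 0.272 and 0.408), and for Grik4, r was -0.868 and rho -0.943 (exact permutation p = 0.0194 and 0.0167, adjusted p = 0.272 and 0.333). Without cKO replicates 4 and 6 these were -0.975 and -0.716. For Grik3, r was 0.855 and rho 0.600 (exact permutation p = 0.0347 and 0.242, adjusted p = 0.304 and 0.634), and it was -0.363 without cKO replicates 4 and 6, on which it rests. The cKO arrays spanned only 10.88 to 10.94 for Neto2 and 6.23 to 6.35 for Grik4. In WT, r with the dividing cell list was -0.324 for Neto2, -0.554 for Grik4 and -0.323 for Grik3. The differences between the genotypes were not tested.

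The genes most like Neto1 and Grik2 across the 12 arrays were ranked by Pearson's r after the genotype means were subtracted, as a description. The values given are the highest among 11102 named probe sets, and how high r runs by such selection alone was not tested. The 5 nearest to Neto1 were Mrtfb, a coactivator of serum response factor (r = 0.878), Rarb, a retinoic acid receptor gene (0.872), Exoc2, of the exocyst complex (0.863), Kcnq5, a potassium channel gene (0.847), and Gnal, which encodes the striatal G protein alpha subunit (0.845). Rarb and Gnal are also on the projection neuron list. Their changes between genotypes were -0.52 ± 0.11 for Rarb (limma adjusted p = 0.0522) and -0.37 ± 0.08 for Gnal (limma adjusted p = 0.0730), while Mrtfb was at -0.03 ± 0.06, Exoc2 at -0.08 ± 0.03 and Kcnq5 at -0.07 ± 0.07. The 5 nearest to Grik2 were Kcna6, a potassium channel gene (r = 0.947), Surf4, a cargo receptor of the endoplasmic reticulum (0.916), Enoph1 (0.908), Plpp2, a lipid phosphatase (0.903), and Dusp22, a phosphatase (0.902). Their changes between genotypes ran from -0.12 (Surf4 and Kcna6) to 0.0048 (Dusp22), against -0.59 for Grik2 itself. Plpp2, with means of 5.75 in WT and 5.74 in cKO, lay close to the array median, where little change can be seen. None of the 7 kainate receptor and Neto genes was among the 5 nearest to either. The nearest family gene was Grik4 for both, with r = 0.537 to Neto1 and 0.347 to Grik2.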

How the data were processed

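The deposited values are log2 expression made with RMA (version not stated), per the submitters' processing notes. This method subtracts background, gives all arrays one distribution and condenses the probes of a set, which hides any shift shared by all genes. Array software and probe definition are not given in the sources used here. Of 25428 probe sets, 24674 were named from the platform annotation, with symbols updated through gene identifiers in RefSeq (GRCm38.p6), and 754 were not named. The two-sided limma test (version 3.58.1, under R 4.3.3; lmFit, then eBayes) ran over all probe sets and 12 arrays without covariates, with Benjamini-Hochberg adjustment over all and a threshold of 0.05. SE is limma's. The fit was tested on simulated data. The labels call the samples biological replicates.

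The 7 genes and 12 gene lists (141 of 152 genes measured) were chosen with earlier results of these data known. The named genes are the 7, Foxp1, from each list up to 3 called genes with the largest change or else the 2 with the smallest p, and the 5 nearest to Neto1 and to Grik2. For these 5, predicted genes, Rik clones, small RNAs and probe sets with a mean below the median of all values were left out. Correlations used two-sided exact permutation tests over all 720 pairings of 6 arrays. The alternatives were quantile normalization, median centring, cyclic loess, dropping dim probe sets, a prior with trend and robust fitting, weights per array, a replicate block, 3 covariates (Y-linked, cortical and interneuron levels), leaving out arrays, and an adjusted p below 0.01. Promoter sequences are RefSeq's. The number of arrays limits the precision.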

Additional observations from a re-analysis of the deposited data

Results flagged for a closer look

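In 72 groups of 6 arrays (8 genes, 10 list means and 18 other named genes in each genotype), the gap of the highest or lowest array to its neighbour was compared with Dixon's 95% critical value, which chance passes in about 5% of groups. It was passed in 5, and in none of the 7 kainate receptor and Neto genes. The list of immune, vascular, choroid plexus, blood and meningeal genes was highest in cKO replicate 1, at 6.68 against 6.38 for the next array. Ttr, which read 9.96 on that array, belongs to this list, so the list mean contains that value and is not a separate observation. Ikzf1 was also highest in cKO replicate 1, at 6.28 against 6.11 for the next cKO array. Dlg2 was highest in cKO replicate 4, at 9.43 against 9.35, and without that array its change was -0.32 (limma adjusted p = 0.00336). Gria1 was highest in cKO replicate 6, at 10.99 against 10.94, and Cxcr4 was highest in WT replicate 6, at 7.48 against 7.18.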

How the results depend on the processing

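Over 23 alternative fits the change ran from -0.96 to -0.79 for Neto1 and from -0.64 to -0.53 for Grik2. This describes the settings only, since both genes were chosen on this comparison. Over all probe sets the count of calls was 185, and it was 278 without dim probe sets, 61 at an adjusted p below 0.01, 49 with the cortical covariate and 28 with the interneuron covariate. It ran from 106 (without cKO replicate 2) to 227 when single arrays were left out, with 109 without cKO replicate 5 and 117 without cKO replicate 3. With the replicate number as a block it was 64, and Dlg2 passed (limma adjusted p = 0.0382). The labels name no pairing by number, and the values did not show one. Correlations of the deviations of same-numbered arrays ran from -0.221 to 0.155, and 0 of the 12 arrays correlated best with its own number. Whether same-numbered samples shared a litter or a processing day cannot be told from this. Ikzf1, Pde10a, Maf, Cxcr4 and Aurkb missed the threshold with that block. Among the 19 receptor partners, 0 passed in limma with the interneuron covariate and 1 in every other alternative. With that covariate 5 had an unadjusted p under 0.05, against 2 in the main fit. The share of all probe sets at that p was not counted with the covariate, so nothing is read from the 5. The cause of these shifts was not tested. The list counts without cKO replicate 1 were added after seeing the data. Median centring, also added then for the correlation of Grik2 with Neto1, left r at 0.256 in WT and 0.250 in cKO. The Y-linked covariate used 3 of the 4 planned genes. With 6 arrays per genotype, only correlations near 1 or -1 reach a small p.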
